A study of Mus musculus with 15 samples.

Results

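The 10 genes described here are the keratins that epithelia of the ocular surface are known for, chosen by symbol: Krt12, Krt5, Krt14, Krt15, Krt19, Krt4, Krt13, Krt7, Krt8 and Krt18. They are 10 of the 55357 gene identifiers in the count tables, and all 10 were found by symbol. Keratins build the intermediate filaments of epithelial cells, and each filament needs a type I chain (here Krt12, Krt13, Krt14, Krt15, Krt18 and Krt19) joined to a type II chain (here Krt4, Krt5, Krt7 and Krt8). Which pair an epithelial cell makes is a guide to where it sits. Krt12 belongs to corneal epithelium, Krt5 and Krt14 to basal cells, Krt15 to basal cells of the limbus, where corneal stem cells lie, Krt19, Krt4, Krt13 and Krt7 mainly to the conjunctiva, and Krt8 and Krt18 to simple epithelia.

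RNA of mouse cornea was sequenced in 15 libraries from OPA1+/- and OPA1+/+ animals of 6 and 3 months. Opa1 encodes a GTPase of the inner mitochondrial membrane, OPA1+/- animals carry the heterozygous genotype, and OPA1+/+ is the wild type; the labels name no further allele, agent or strain. There were 4 OPA1+/- and 3 OPA1+/+ libraries at 6 months, and 4 OPA1+/- and 4 OPA1+/+ libraries at 3 months. The series title sets the study in the context of corneal sensory innervation under inherited mitochondrial dysfunction.

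Libraries held 11673240 to 18194946 counts. Xist ran from 1433 to 1969 CPM (counts per 1000000 counted reads) and 4 Y-linked genes from 126 to 172 CPM summed, before any scaling factor, so RNA of female and male animals was present in all 15 libraries. The labels do not say how many animals a library holds, and p-values below measure the spread between libraries. Opa1 ranged over 45.5 to 57.8 CPM among OPA1+/- libraries (n = 8), all below the 65.2 to 73.4 CPM of OPA1+/+ libraries (n = 7) (log2 fold change -0.47 ± 0.04, adjusted p = 1.83e-05 by edgeR's quasi-likelihood test), the direction the labels give. Corneal epithelium markers other than keratins, led by Aldh3a1, summed to 21138 to 24361 CPM over 9 genes. A pair of libraries stood apart by the sum of 10 retina markers. It was 165 CPM in OPA1+/- 3 months replicate 4 and 157 CPM in OPA1+/+ 6 months replicate 1. Elsewhere it was 13.2 to 26.4 CPM. The sum of 11 lens markers was 118 CPM in the first of the pair and 6.86 CPM in the second, against 6.89 to 35.5 CPM elsewhere. Fold changes averaged over both ages or both genotypes are given with and without these libraries for Krt15, Krt19, Krt4, Krt13 and the list of 10 keratins, and for Krt7 by age.

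Per unit length the 10 keratins spanned more than 4 orders of magnitude, with the corneal pair at the top and the simple-epithelium pair at the bottom. Levels of different genes are compared as TPM, that is counts divided by gene length and scaled to a sum of 1000000 per library. Krt12 averaged 55239 ± 3493 TPM (SD, n = 15) and Krt5 averaged 26284 ± 1635 TPM. The next tier was Krt15 at 981 ± 375 TPM, Krt13 at 871 ± 178 TPM and Krt14 at 479 ± 173 TPM. Krt4 at 81.7 ± 54.9 TPM and Krt19 at 77.9 ± 29.4 TPM followed, then Krt7 at 12.7 ± 4.36 TPM, Krt18 at 5.80 ± 1.21 TPM and Krt8 at 3.704 ± 1.599 TPM. The gene length used for Krt7 was 7049 bases, against 1437 (Krt18) to 2197 (Krt5) for the others. Its level relative to the other keratins depends on that length. Neighbours in this order did not all differ beyond their spread: Krt15 exceeded Krt13 in 10 of 15 libraries and Krt4 exceeded Krt19 in 6 of 15. Krt13 exceeded Krt14 in all 15 libraries and Krt7 exceeded Krt18 in all 15, although their ranges over libraries overlapped, and Krt18 exceeded Krt8 in 13 of 15.

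**Figure D1:**
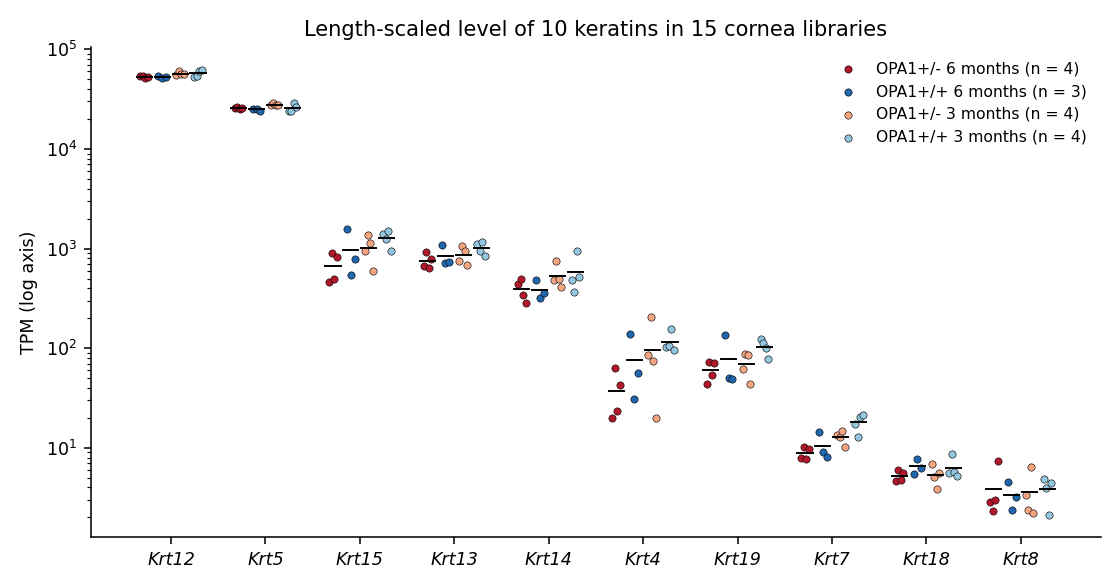
Length-scaled level (TPM, log axis) of each keratin in each of 15 libraries, coloured by group, with a bar at each group mean. Krt12 and Krt5 form tight clusters near 55239 and 26284 TPM, whereas the points of Krt4 and Krt15 spread more widely within groups.

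No keratin passed the test for genotype or age in any of 7 comparisons (edgeR's quasi-likelihood test, Benjamini-Hochberg adjusted over 15770 tested genes, threshold 0.05). For OPA1+/- over OPA1+/+ at 6 months 0 of 10 passed, where 0.323% of all tested genes did, and 0 of 10 had an unadjusted p under 0.05. At 3 months 0 of 10 passed, where 0.00634% of genes did, and 1 had an unadjusted p under 0.05. Averaged over both ages 0 of 10 passed against 0.793% of genes, and 1 had an unadjusted p under 0.05. For 6 over 3 months, 0 of 10 passed in OPA1+/- (0.0824% of genes), in OPA1+/+ (0.0507%) and averaged over both genotypes (0.412%), with 1, 1 and 3 keratins at an unadjusted p under 0.05. The test of whether the genotype difference changed with age called 0 of 10 keratins and 0% of genes, with 0 keratins at an unadjusted p under 0.05. DESeq2's Wald test called Krt7 for age in OPA1+/+ (0.943% of genes) and for age averaged over both genotypes (1.63%), and no keratin in the other 5 comparisons. With fewer than 1 gene in 100 called by edgeR in each comparison, 0 of 10 is a count near the background.

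Most keratins had negative fold changes, although none passed. Averaged over both ages, 8 of 10 had a negative log2 fold change for genotype, with a median of -0.24, where the median of all tested genes was 0.0028. Without the 2 libraries with retina transcripts 6 of 10 were negative with a median of -0.05, and without OPA1+/+ replicate 1 at 6 months alone 6 of 10 with a median of -0.12. For 6 over 3 months averaged over both genotypes, 9 of 10 were negative with a median of -0.26, against 0.00098 over all tested genes. Without the 2 libraries the median was -0.53, and without OPA1+/+ replicate 1 at 6 months alone -0.47; leaving out replicate 2 of that group gave -0.17. Markers of other tissues did not share 1 sign for age. Of the stroma markers 8 of 10 were negative (median -0.30, and -0.32 without the 2 libraries). All 7 tested lens markers were negative (median -2.28, and -1.23 without them). So were the 4 tested genes of the lacrimal gland list, Bhlha15, Aqp5, Ltf and Lyz2 (median -0.17). These 4 are not specific to that gland, so their sign is no guide to its tissue. Endothelium markers were negative in 4 of 8 (median -0.0083) and retina markers in 3 of 7 (median 0.033). Of 22 epithelial transcription factors 4 were negative (median 0.056). The part of other tissues in the keratin values was not tested. Several of these keratins varied together between libraries, as described below, so that their signs are not separate pieces of evidence. In whole cornea, fewer cells of a type and less RNA per cell cannot be told apart.

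**Figure D2:**
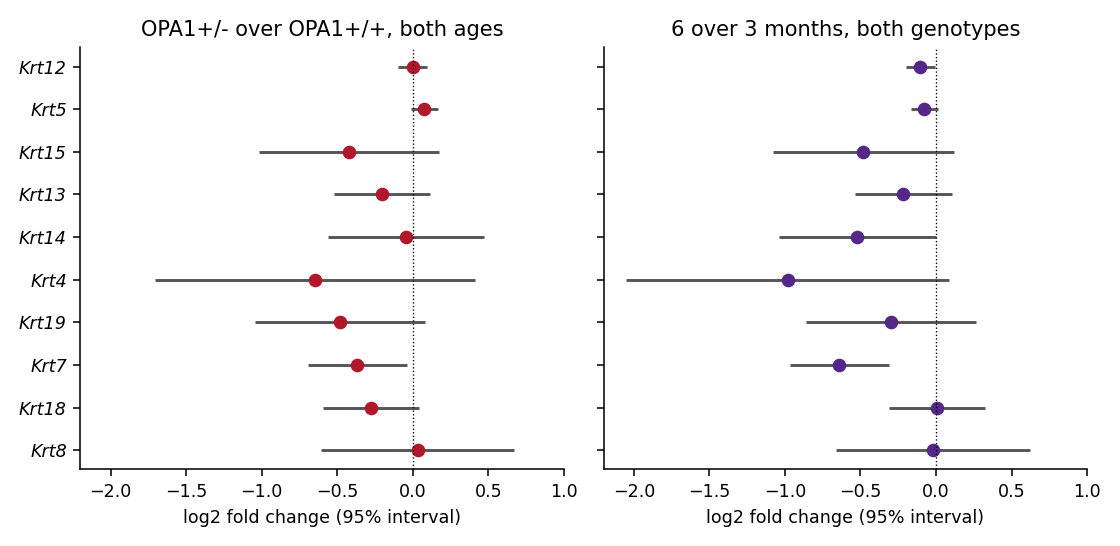
Log2 fold change (point) and its 95% interval (line) of each keratin from edgeR, for OPA1+/- over OPA1+/+ averaged over both ages (left) and 6 over 3 months averaged over both genotypes (right). Krt12 and Krt5 lie close to 0 with narrow intervals, Krt4 has the widest, and Krt7 on the right (-0.64) is the value farthest from 0 relative to its error.

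Krt12, the type I chain of corneal epithelium, and Krt5, its type II partner, carried almost all of the counts of the 10 keratins. Their 95% intervals for genotype averaged over both ages lay between -0.10 and 0.17 on the log2 scale. The 10 keratins took 4.27% to 5.17% of a library's counts, and Krt12 and Krt5 made up 96.1% to 98.1% of that. The Krt12 gene lies on chromosome 11 from 99306492 to 99313085 on the minus strand, and Krt5 on chromosome 15 from 101615505 to 101621333 on the minus strand (GRCm39, gene coordinates of the count tables). Their promoters are shown because both genes are read at such a high level and varied together. Each run is the 250 bases before the start site on the gene's strand, from RefSeq on build GRCm38.p6, with 2 motifs in capitals wherever they match either strand. These are the TATA box, spelled TATAAA, and the CACCC element. A CACCC on the opposite strand reads GGGTG here. Krt12 covers chr11:99422260-99422509 and Krt5 covers chr15:101712906-101713155, both on the minus strand.
Krt12: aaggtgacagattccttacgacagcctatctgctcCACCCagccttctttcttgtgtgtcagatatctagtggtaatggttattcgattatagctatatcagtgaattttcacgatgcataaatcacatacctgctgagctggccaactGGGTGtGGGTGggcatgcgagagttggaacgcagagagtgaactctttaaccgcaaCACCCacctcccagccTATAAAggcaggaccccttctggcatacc
Krt5: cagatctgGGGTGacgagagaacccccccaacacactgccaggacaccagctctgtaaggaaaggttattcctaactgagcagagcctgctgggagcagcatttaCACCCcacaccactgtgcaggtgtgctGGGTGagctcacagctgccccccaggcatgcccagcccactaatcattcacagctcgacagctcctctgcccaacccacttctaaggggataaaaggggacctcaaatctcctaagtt
The Krt12 window held 1 TATAAA, whose first base on the gene's strand lies 29 bases before the start, and 4 CACCC matches. The Krt5 window held 3 CACCC matches and no TATAAA. Of 32851 windows of the same length, 12.4% held TATAAA and 52% held CACCC on either strand. These matches are descriptions of the letters, not of binding.

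Krt12 stood at 28770, 28620, 26665 and 27080 CPM in OPA1+/- corneas at 6 months, against 27806, 26106 and 27746 CPM in OPA1+/+ corneas. Its 3-month values were 27343, 31655, 29102 and 28781 CPM in OPA1+/- and 26620, 27879, 32197 and 32909 CPM in OPA1+/+. The genotypes overlapped at both ages. CPM values here are scaled by trimmed-mean (TMM) factors and serve to compare 1 gene between libraries. The log2 fold change for genotype averaged over both ages was -0.0018 ± 0.045 (SE), with a 95% interval of -0.10 to 0.09. For 6 over 3 months it was -0.10 ± 0.05, with an interval of -0.20 to -0.0093, an unadjusted p of 0.0331 and an adjusted p of 0.367 in edgeR's quasi-likelihood test.

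Genotypes of the same age, and ages of the same genotype, were set side by side for each keratin. Only Krt5 had groups that did not overlap, and only for genotype at 6 months. The share of all tested genes without such overlap was not counted, so this is a description only. At 6 months it stood at 16321, 16620, 15604 and 15631 CPM in OPA1+/- corneas, against 15432, 15327 and 15037 CPM in OPA1+/+ corneas. All 4 OPA1+/- libraries lay above the 3 OPA1+/+ libraries, yet the log2 fold change was 0.072 ± 0.063 with an adjusted p of 0.767 in edgeR's test, where 0.323% of genes passed. The 3-month groups overlapped, with means of 16999 ± 708 CPM in OPA1+/- corneas and 16072 ± 1744 CPM in OPA1+/+ corneas (SD, n = 4 each). Averaged over both ages the genotype value was 0.076 ± 0.043 (adjusted p = 0.5), and 6 over 3 months averaged over both genotypes was -0.079 ± 0.043 (adjusted p = 0.482).

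The balance between these partners moved within a narrow range. The ratio of Krt12 to Krt5 in TPM lay between 2.03 and 2.09 in OPA1+/- corneas and between 2.02 and 2.19 in OPA1+/+ corneas at 6 months. The 3-month ratio lay between 1.98 and 2.08 in OPA1+/- corneas and between 2.09 and 2.35 in OPA1+/+ corneas. The 3-month ranges did not overlap; this ratio was singled out after its values were seen and was not tested. All type I keratins of the list exceeded all type II keratins by 2.05 to 2.42 times in summed TPM over the 15 libraries.

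Krt14 is the usual type I partner of Krt5 in basal cells of stratified epithelia, but here Krt5 exceeded it by 30.6 to 91.3 times in TPM. Krt14 stood at 221, 248, 171 and 137 CPM in OPA1+/- and 236, 153 and 177 CPM in OPA1+/+ corneas at 6 months. At 3 months it stood at 227, 376, 245 and 201 CPM in OPA1+/- and 229, 183, 477 and 261 CPM in OPA1+/+. OPA1+/+ replicate 3 at 3 months was the highest library and OPA1+/- replicate 4 at 6 months the lowest, and the groups overlapped in every comparison. The log2 fold change was -0.047 ± 0.23 for genotype averaged over both ages and -0.52 ± 0.24 for 6 over 3 months, with an unadjusted p of 0.0493 and an adjusted p of 0.419 for age in edgeR's test. Without OPA1+/+ replicate 3 at 3 months the genotype value was 0.13, and without the 2 libraries with retina transcripts it was 0.10.

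Krt15, a keratin of limbal basal cells, and Krt19, which limbal and conjunctival cells share, varied widely between libraries of 1 group. Krt15 stood at 231, 456, 249 and 403 CPM in OPA1+/- and 777, 265 and 389 CPM in OPA1+/+ corneas at 6 months. At 3 months it stood at 448, 689, 564 and 288 CPM in OPA1+/- and 665, 618, 757 and 470 CPM in OPA1+/+. The highest library of all was OPA1+/+ replicate 1 at 6 months, which also held retina transcripts. For genotype averaged over both ages Krt15 had a log2 fold change of -0.42 ± 0.27 and Krt19 of -0.48 ± 0.26, with adjusted p of 0.594 and 0.493 in edgeR's test. For 6 over 3 months averaged over both genotypes the values were -0.48 ± 0.27 and -0.30 ± 0.26. Without OPA1+/+ replicate 1 at 6 months the genotype values were -0.15 for each, and the age values -0.75 for Krt15 and -0.62 for Krt19. Without both libraries with retina transcripts the genotype values were -0.060 for Krt15 and -0.068 for Krt19, and the age values -0.85 and -0.72; none of these passed.

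Krt19 averaged 31.5 ± 7.15 CPM in the 4 OPA1+/- libraries and 40.3 ± 25.4 CPM in the 3 OPA1+/+ libraries at 6 months (SD). Its 3 OPA1+/+ libraries were 69.7, 25.4 and 25.97 CPM, so the mean there was carried by replicate 1. At 3 months Krt19 averaged 35.9 ± 11.2 CPM in OPA1+/- and 53.9 ± 9.48 CPM in OPA1+/+ (n = 4 each). Without the 2 libraries with retina transcripts the genotype value at 6 months turned to 0.29 for Krt19, against -0.36 with them, and to 0.033 for Krt15, against -0.51 with them; none of these passed.

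Krt4 and Krt13 pair with each other in non-cornified stratified epithelia such as conjunctiva. Krt4 stood at 12.05, 38.4, 14.1 and 25.1 CPM in OPA1+/- and 83.7, 18.1 and 33.97 CPM in OPA1+/+ corneas at 6 months. Its 3-month values were 49.6, 125, 45.03 and 11.8 CPM in OPA1+/- and 59.9, 62.3, 95.4 and 58.6 CPM in OPA1+/+. The OPA1+/- group at 3 months thus contained both the highest and the lowest library of all 15, a 10.6-fold span within 1 group. The log2 fold change was -0.65 ± 0.48 for genotype averaged over both ages (adjusted p = 0.665) and -0.98 ± 0.49 for 6 over 3 months (unadjusted p = 0.0679, adjusted p = 0.46). With 1 library left out, the genotype value ran from -1.01 to -0.25, the end nearest 0 without OPA1+/+ replicate 1 at 6 months, and the age value from -1.38 to -0.63. Without both libraries with retina transcripts they were -0.073 for genotype and -1.56 for age, and neither passed. At 3 months the genotype value was -0.28 ± 0.63, and 0.072 without OPA1+/- replicate 4 or without both libraries with retina transcripts.

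Krt13 was steadier. It averaged 387 ± 69.8 CPM in the 4 OPA1+/- libraries and 431 ± 111 CPM in the 3 OPA1+/+ libraries at 6 months (SD), and 435 ± 95.3 CPM in OPA1+/- and 519 ± 73.2 CPM in OPA1+/+ at 3 months (n = 4 each). Its log2 fold change was -0.21 ± 0.14 for genotype averaged over both ages and -0.22 ± 0.15 for 6 over 3 months, and neither passed (adjusted p = 0.641 and 0.594, edgeR). Without OPA1+/+ replicate 1 at 6 months these were -0.090 and -0.33, and without both libraries with retina transcripts -0.043 and -0.38. The ratio of Krt13 to Krt4 in TPM ran from 5.11 to 33.998. Its promoter is shown as that of the 1 keratin among those that varied most together with an entry at the annotated gene start. The run covers chr11:100121567-100121816 on the minus strand (GRCm38.p6, RefSeq). CACCC (either strand) and the letters TGANTCA, where N is any base, are in capitals.
Krt13: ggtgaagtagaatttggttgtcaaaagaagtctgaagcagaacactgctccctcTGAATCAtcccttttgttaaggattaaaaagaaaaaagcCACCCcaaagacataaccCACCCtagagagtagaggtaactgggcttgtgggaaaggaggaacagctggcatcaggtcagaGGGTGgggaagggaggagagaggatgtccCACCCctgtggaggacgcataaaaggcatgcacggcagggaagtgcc
It held 4 CACCC matches and 1 TGANTCA match, spelled TGAATCA, beginning 196 bases before the start. Of the 32851 windows, 6.75% held TGANTCA, and the letters TATAAA were not found in this one.

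Krt7, a type II keratin of conjunctival and simple epithelia, had the smallest adjusted p of the 10 keratins for age, and it was lower at 6 months. It stood at 16.04, 20.6, 15.4 and 18.8 CPM in OPA1+/- and 28.1, 17.8 and 16.1 CPM in OPA1+/+ corneas at 6 months. Its 3-month values were 25.8, 25.5, 29.1 and 19.8 CPM in OPA1+/- and 33.3, 25.6, 40.7 and 43.1 CPM in OPA1+/+. In each genotype the ages overlapped through 1 library: OPA1+/- replicate 4 at 3 months lay below 1 library of 6 months, and OPA1+/+ replicate 1 at 6 months lay above 1 library of 3 months. Both are the libraries with retina transcripts. The counts behind these values were 207 to 517 per library.

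For 6 over 3 months averaged over both genotypes, Krt7 had a log2 fold change of -0.64 ± 0.15, a 95% interval of -0.97 to -0.31, an unadjusted p of 0.00112 and an adjusted p of 0.0905 in edgeR's test, so it did not pass. It was called by DESeq2's Wald test (adjusted p = 0.000534), but not by edgeR with replicate number as a block (-0.64, adjusted p = 0.21). It was also called by edgeR without the 2 libraries with retina transcripts (-0.84, adjusted p = 0.00818). That fit called 250 genes in all for this comparison, against 65 with all 15 libraries. Without OPA1+/+ replicate 1 at 6 months alone Krt7 was called too (-0.78, adjusted p = 0.0164). Leaving out any other single library gave no call of Krt7, and its adjusted p over all 15 such fits ran from 0.0164 to 0.248. These 15 fits called 18 to 230 genes in all. The age values were -0.50 ± 0.21 in OPA1+/- (adjusted p = 0.514) and -0.78 ± 0.22 in OPA1+/+ (adjusted p = 0.23), and their difference did not pass (0.29 ± 0.30, adjusted p = 0.897). For age in OPA1+/+, edgeR gave no call with the replicate block (adjusted p = 0.385) or with the compared groups alone (adjusted p = 0.506). DESeq2's Wald test gave an adjusted p of 0.0119. EdgeR gave 0.0362 without OPA1+/+ replicate 1 at 6 months and 0.0254 without the 2 libraries with retina transcripts. The last of these fits called 138 genes in all for age in OPA1+/+, against 8 with all 15 libraries. For genotype Krt7 had -0.51 ± 0.20 at 3 months and -0.22 ± 0.23 at 6 months, and neither passed; the 6-month value turned to 0.063 without the 2 libraries.

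**Figure D3:**
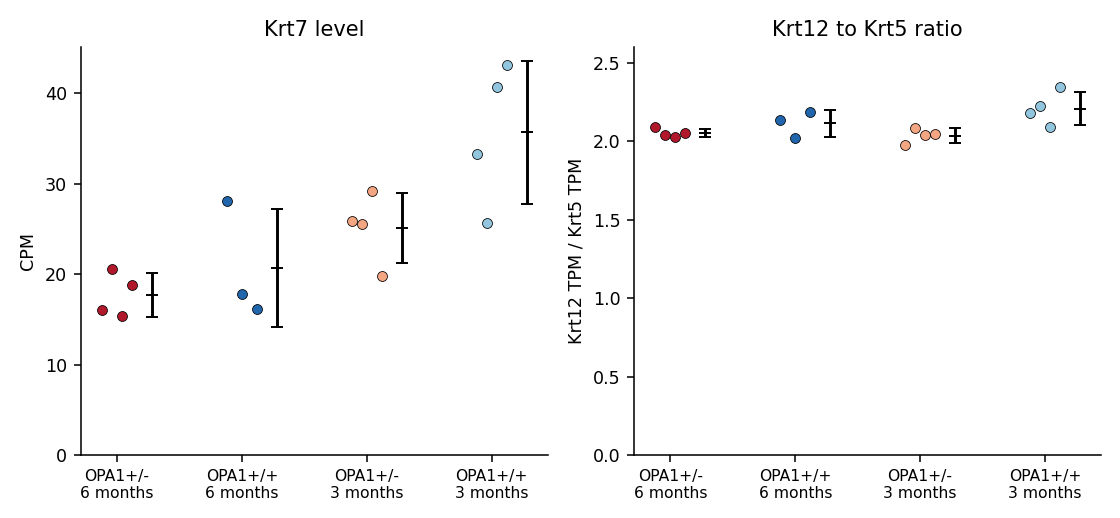
Krt7 in CPM (left) and the ratio of Krt12 to Krt5 in TPM (right) in each library, with the mean and SD of each group beside the points. For Krt7 the means at 6 months are 17.7 CPM (OPA1+/-) and 20.7 CPM (OPA1+/+), below those at 3 months, 25.1 CPM (OPA1+/-) and 35.7 CPM (OPA1+/+), and the highest 6-month point is OPA1+/+ replicate 1; for the ratio all points lie between 1.98 and 2.35.

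Krt8 and Krt18, the pair of simple epithelia such as gland ducts, were close to the lowest level at which genes were tested. Krt8 rested on 15 to 51 counts per library and Krt18 on 20 to 48 counts. Krt8 averaged 2.13 ± 1.25 CPM in the 4 OPA1+/- libraries and 1.85 ± 0.61 CPM in the 3 OPA1+/+ libraries at 6 months (SD), and 1.96 ± 1.08 CPM in OPA1+/- and 2.11 ± 0.65 CPM in OPA1+/+ at 3 months (SD, n = 4 each). Krt18 averaged 2.12 ± 0.26 CPM in OPA1+/- and 2.604 ± 0.44 CPM in OPA1+/+ at 6 months, and 2.12 ± 0.45 CPM in OPA1+/- and 2.54 ± 0.64 CPM in OPA1+/+ at 3 months. For genotype averaged over both ages Krt8 had 0.033 ± 0.30 and Krt18 had -0.28 ± 0.15 (adjusted p = 0.983 and 0.482). The correlation of these partners over the 15 libraries, group means removed, was r = -0.36 (permutation p = 0.231, adjusted p = 0.372) and rho = -0.40 (permutation p = 0.178, adjusted p = 0.308), and r = -0.26 without the 2 libraries farthest from the median of Krt8. Processed copies of Krt8 are known; a copy listed as Krt8-ps held 0 to 2 counts, and reads that match several places were not counted.

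The keratins differed widely in their spread between libraries of 1 group. This spread is given as the SD of log2 CPM after removal of the group mean, whose median over the 14383 genes with a mean of at least 1 CPM was 0.13. Krt12 and Krt5 had SDs of 0.098 and 0.090, below the median, and 66.5% and 71.5% of genes varied more. Krt4 had an SD of 0.97, which 50 genes (0.348%) exceeded. Krt8 followed at 0.58, Krt15 at 0.53, Krt19 at 0.49, Krt14 at 0.44, Krt7 at 0.30, Krt13 at 0.28 and Krt18 at 0.26. Krt8 and Krt18 have few counts, which adds counting error to theirs. These SDs include the 2 libraries with retina transcripts, and SDs without them are not given. Krt4 deviated from its group mean by -1.84 in OPA1+/- replicate 4 at 3 months and by 1.17 in OPA1+/+ replicate 1 at 6 months. It also deviated by 1.54 in OPA1+/- replicate 2 at 3 months, which is not among those 2.

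Krt15, Krt19, Krt4 and Krt13 varied together from library to library. Krt7, also a conjunctival keratin, had r of 0.59 to 0.64 with each of these 4. No pair that includes Krt7 passed, with r over all its pairs from -0.49 (Krt18) to 0.64. Without the 2 libraries with retina transcripts, its r with the 4 ran from -0.0054 to 0.32. Whether Krt7 differs from the 4 was not tested. For each of 45 pairs of keratins the correlation of log2 CPM was taken over 15 libraries after the group means were removed, with permutations within groups (100000 resamples) and Benjamini-Hochberg adjustment over the 45 pairs; 8 pairs passed by Pearson's r, which is the measure counted below. All 6 pairs among Krt15, Krt19, Krt4 and Krt13 did, with r between 0.80 and 0.93. Krt15 and Krt13 had r = 0.93 and rho = 0.94 (permutation p = 5e-05, adjusted p = 0.00225; rho, p = 0.00011, adjusted p = 0.0042), and r = 0.90 without the 2 libraries farthest from the median of Krt15. Krt15 and Krt4 had r = 0.92 and rho = 0.95 (permutation p = 0.00012, adjusted p = 0.0027; rho, p = 0.00025, adjusted p = 0.0042), and r = 0.90 without the 2 farthest.

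The other 2 passing pairs joined Krt5 to its type I partners. Krt12 and Krt5 had r = 0.87 and rho = 0.93 (permutation p = 0.00637, adjusted p = 0.0358; rho, p = 0.0025, adjusted p = 0.0162), and r = 0.86 without the 2 libraries farthest from the median of Krt12. Krt5 and Krt14 had r = 0.84 and rho = 0.83 (permutation p = 0.00133, adjusted p = 0.0108; rho, p = 0.00288, adjusted p = 0.0162), and r = 0.83 without the 2 farthest. Krt12 and Krt14 had r = 0.72, which did not pass (permutation p = 0.0117, adjusted p = 0.0526), and rho = 0.82, which did (permutation p = 0.00363, adjusted p = 0.0181); r was 0.89 without the 2 farthest. None of the 12 pairs between Krt12, Krt5 or Krt14 and Krt15, Krt19, Krt4 or Krt13 passed, with r from 0.01 to 0.66. The 2 sets are grouped by these same values of r, so their contrast is a description. That the sets differ was not itself tested.

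**Figure D4:**
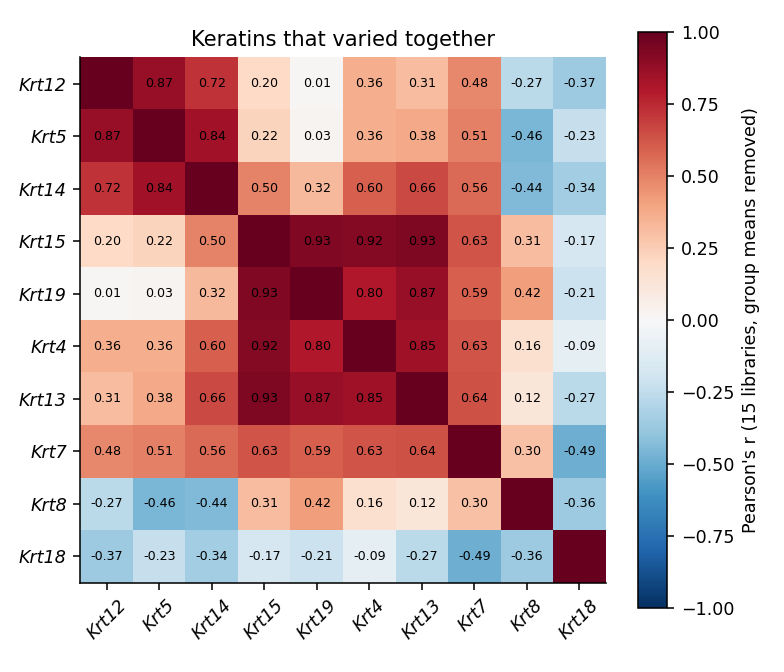
Pearson's r between each pair of keratins over 15 libraries after removal of group means, from -1 (blue) to 1 (red). Krt15, Krt19, Krt4 and Krt13 form a block with r of 0.80 to 0.93, and Krt12, Krt5 and Krt14 a second block with r of 0.72 to 0.87. The blocks are read from these same values, and Krt12 with Krt14 (r = 0.72) did not pass.

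The number of pairs that passed depended on the libraries included. Without the 2 libraries with retina transcripts, which are also the 2 farthest from the median of the 10 keratins together, r among Krt15, Krt19, Krt4 and Krt13 was 0.60 to 0.88 and within Krt12, Krt5 and Krt14 0.73 to 0.87, but 1 pair passed, Krt15 with Krt13 (r = 0.88, permutation test, adjusted p = 0.013). Leaving out OPA1+/+ replicate 1 at 6 months left 5 passing pairs, and leaving out OPA1+/+ replicate 4 at 3 months gave 16. Relative to its group mean, OPA1+/+ replicate 1 at 6 months was high in all 4 of Krt15, Krt19, Krt4 and Krt13, as was OPA1+/- replicate 2 at 3 months, and OPA1+/- replicate 4 at 3 months was low in all 4.

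**Figure D5:**
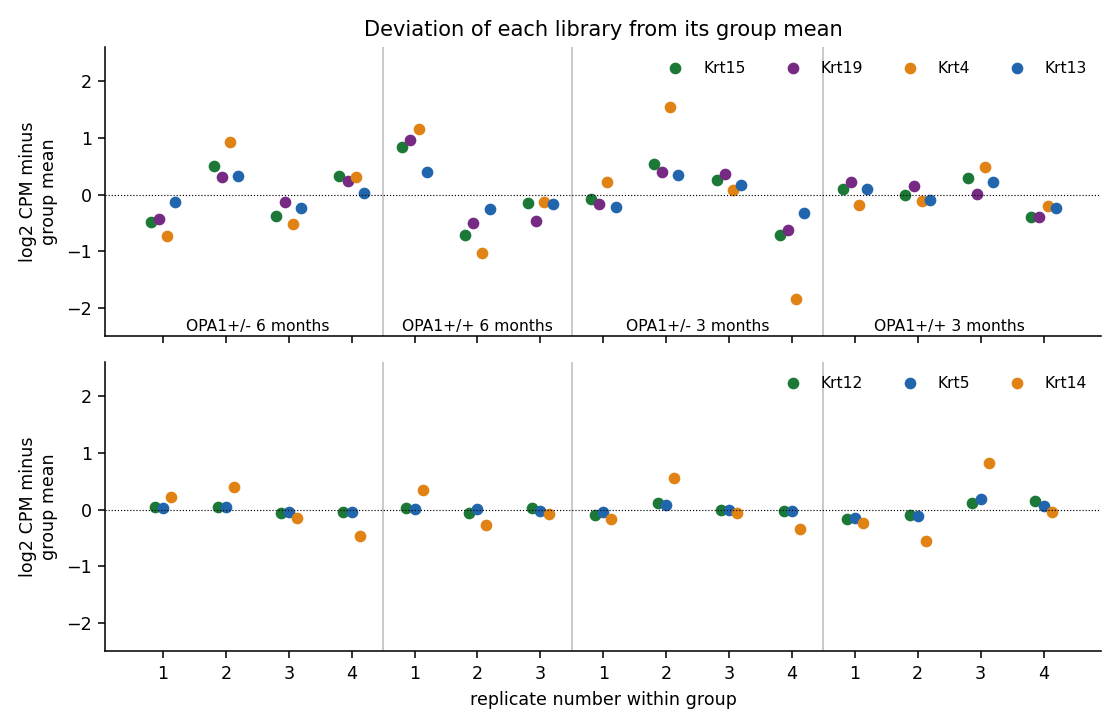
Log2 CPM of each library minus its group mean, for Krt15, Krt19, Krt4 and Krt13 (top) and Krt12, Krt5 and Krt14 (bottom), in the 4 groups. The 4 genes in the top panel lie on the same side of 0 in most libraries, with Krt4 farthest out, whereas Krt12 and Krt5 stay near 0 throughout.

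Markers of conjunctival goblet cells, the mucus cells that cornea lacks, had few counts in the same libraries, with the exception of Fcgbp. Tff3 had 0 counts in all 15 libraries, Muc5ac 0 to 4, Clca1 0 to 3, Foxa3 0 to 2, and Muc5b, Tff1 and Tff2 at most 1. Spdef had 2 to 20 counts and Agr2 12 to 41, and Fcgbp, at 1158 to 1974 counts, made up most of the list's sum. A value of 0 allows up to 3 counts, or 0.165 to 0.257 CPM, and covers counting error only. Summed over the 10 genes, 6-month libraries held 105 to 119 CPM (OPA1+/-) and 105 to 130 CPM (OPA1+/+), and 3-month libraries held 107 to 129 CPM (OPA1+/-) and 100.4 to 128 CPM (OPA1+/+). In OPA1+/+ replicate 1 at 6 months, where Krt15, Krt19, Krt4 and Krt13 were high, the sum was 107 CPM. Because Fcgbp made up most of each sum, the sums say little of the other goblet markers. The part of conjunctival or limbal tissue in the spread of these keratins was not tested.

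By likeness of log2 CPM over the 15 libraries (Pearson's r against every other tested gene, as a description), the 3 genes most like Krt15 were Krt4 (0.95), Sptssb (0.94) and Krt13 (0.94). Those most like Krt13 were Krt15 (0.94), Duox1 (0.91), an enzyme that makes hydrogen peroxide at epithelial surfaces, and Serpinb3a (0.91), a protease inhibitor. Those most like Krt12 were Gm15459 (0.94), Rpn1 (0.92), a subunit of the oligosaccharyltransferase, and Rnh1 (0.92), a ribonuclease inhibitor. Those most like Krt14 were Fbln1 (0.93), an extracellular matrix protein, Krt6a (0.92) and Ppm1l (0.92), a phosphatase. Those most like Krt8 were Slc38a9 (0.84), Dirc2 (0.83) and Gm47572 (0.83). The points share libraries and depth, and the likeness includes differences between groups.

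Of 44 other keratin genes, 13 had enough counts to be tested, 12 averaged at least 1 CPM and 3 had no count in any library. None of the 13 passed in any comparison by edgeR. The highest were Krt6a at 1666 ± 247 CPM and Krt6b at 1533 ± 170 CPM (SD, n = 15), type II keratins known from stressed and healing epithelium. They are near-identical copies and reads that match several places were not counted, so both levels may be too low. Krt80 averaged 544 CPM, Krt78 52.9 CPM and Krt23 22.0 CPM, while Krt16, Krt17, Krt10, Krt90, Krt1, Krt75 and Krt74 averaged 1.15 to 6.76 CPM. Krt16 reached 22.1 and 29.8 CPM in OPA1+/+ replicates 1 and 3 at 3 months, and at most 8.40 CPM in the other 13 libraries. The smallest adjusted p for age averaged over both genotypes belonged to Krt90 (-0.97 ± 0.25, adjusted p = 0.108) and Krt75 (-0.72 ± 0.22, adjusted p = 0.157).

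Proteins that anchor keratin filaments gave 2 calls. Of 21 tested members of the 22-gene list of desmosome and hemidesmosome proteins, 1 was higher for genotype averaged over both ages, where 0.793% of all tested genes were called. This was Itgb4, the integrin chain that ties keratin filaments to the basement membrane, at 830 ± 59.3 CPM in the 4 OPA1+/- libraries and 731 ± 46.3 CPM in the 3 OPA1+/+ libraries at 6 months (SD), and 876 ± 16.6 CPM in OPA1+/- and 701 ± 92.9 CPM in OPA1+/+ at 3 months (n = 4 each). It rose by a log2 fold change of 0.25 ± 0.06 (adjusted p = 0.0439, edgeR). The call held without OPA1+/+ replicate 3 or 4 at 3 months, OPA1+/+ replicate 3 at 6 months or OPA1+/- replicate 4 at 6 months, and was lost without any of the other 11 libraries (adjusted p up to 0.134). The median of the list was -0.0065, where that of all genes was 0.0028.

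For 6 over 3 months averaged over both genotypes, 1 of the 21 passed, where 0.412% of all tested genes were called. Dst, a plakin linking keratin to hemidesmosomes, averaged 1506 ± 117 CPM in the 4 OPA1+/- libraries and 1431 ± 136 CPM in the 3 OPA1+/+ libraries at 6 months (SD), and 1665 ± 40.2 CPM in OPA1+/- and 1737 ± 115 CPM in OPA1+/+ at 3 months (SD, n = 4 each). It fell by 0.21 ± 0.04 on the log2 scale (adjusted p = 0.0405). The call held without OPA1+/+ replicate 1 or 3 at 3 months, OPA1+/+ replicate 1 at 6 months or OPA1+/- replicate 3 at 6 months, and was lost without any of the other 11 (adjusted p up to 0.134). The median of the list was -0.0087, where that of all genes was 0.00098.

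Lists of other epithelial and neighbouring-tissue genes held 1 further call. Of 10 stroma markers, Col5a2, a fibrillar collagen chain, was lower at 6 months (-0.45 ± 0.08, adjusted p = 0.0336), where 0.412% of all tested genes were called and the list median was -0.30; 9 of 15 fits without 1 library kept the call. Those that lost it lacked a 6-month library (replicates 1 and 4 of OPA1+/-, replicates 2 and 3 of OPA1+/+) or a 3-month library (replicate 3 of OPA1+/-, replicate 2 of OPA1+/+), with an adjusted p of up to 0.0734. Called genes made up at most 0.793% of tested genes in any comparison, and none of the tested members passed in any among 22 epithelial transcription factors (22 tested), 17 other intermediate filament genes (9 tested), 9 corneal epithelium markers (7 tested), 12 limbal markers (9 tested), 10 goblet markers (3 tested), 14 cornified skin markers (5 tested), 4 keratins of stressed epithelium (4 tested), 8 endothelium markers (8 tested), 11 lens markers (7 tested), 10 retina markers (7 tested) and 7 lacrimal gland markers (4 tested). The nearest were the lamin gene Lmnb1 for age (-0.15 ± 0.033, adjusted p = 0.0535) and Col8a2, of the endothelial basement membrane, for age (-0.15 ± 0.037, adjusted p = 0.077). Gpha2, a marker of limbal stem cells in mouse, averaged 8.50 ± 2.26 CPM over the 15 libraries, and Pax6, the transcription factor that specifies the eye, averaged 1118 ± 49.5 CPM.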

How the data were processed

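Each library came as a table of read counts per gene, deposited as whole numbers. Per the file headers, the authors counted with featureCounts 2.0.1 (exons summed by gene, strand setting 2, GENCODE release 28), without the option that admits multi-mapping reads. Release 28 is on GRCm39, although mm10 and DESeq2 stand in the submitters' processing notes; coordinates of genes are those of the files. No source used here names the aligner. Symbols matched 52081 of 55357 identifiers (94.1%).

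CPM and TPM were computed here from the deposited counts. One edgeR 4.0.16 quasi-likelihood model (R 4.3.3, TMM factors, filterByExpr on the 4 groups, robust, a mean for each group) covered all 15 libraries and 15770 genes, with 11 residual degrees of freedom. The biological coefficient of variation was 0.0884. The SE of a log2 fold change is its absolute value divided by the square root of F. Positive values mean higher in OPA1+/- or at 6 months. Log2 CPM used a prior count of 2. Counting precision follows from 11673240 to 18194946 counts per library. Replicates of a group differed by more than sampling noise (chi-square per degree of freedom 3.27 to 10.1), and none was merged.

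Promoters matched 7 of 10 keratins; the other 3 are Krt15, Krt19 and Krt4. The 3 printed start within 25 bases of the gene end in GENCODE M21.

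The keratins and lists were chosen with earlier results of these data known. Named genes were all 10 keratins, other keratins with at least 1 CPM, list members that passed or had the smallest adjusted p (at most 4 per list), the 3 genes most like Krt12, Krt14, Krt15, Krt13 and Krt8, and Opa1. Gpha2, Pax6, Aldh3a1, Xist, Krt8-ps and the goblet markers are named outside that rule. Alternatives were DESeq2 1.42.0 (size factors and Wald test), library totals without TMM, no filter, the replicate block, the compared groups alone, each library left out, and, added after seeing the data, both libraries with retina transcripts left out. The procedure was tested on simulated data.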

Additional observations from a re-analysis of the deposited data

Results flagged for a closer look

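Groups of 4 libraries were searched for 1 library far from the others (gap over range above 0.829), in 42 groups of values, and 5 were found; chance flags about 1 in 20 groups. Krt4 in OPA1+/+ replicate 3 at 3 months was 95.4 CPM, with the other 3 libraries at 58.6 to 62.3 CPM. Krt8 in OPA1+/- replicate 4 at 6 months was 3.99 CPM, with the others at 1.31 to 1.65 CPM. Krt18 in OPA1+/+ replicate 2 at 3 months was 3.48 CPM, with the others at 2.13 to 2.36 CPM. The summed level of 10 retina markers was 165 CPM in OPA1+/- replicate 4 at 3 months, with the others at 15.2 to 21.4 CPM, and 26.4 CPM in OPA1+/- replicate 4 at 6 months, with the others at 15.6 to 17.1 CPM.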

How the results depend on the processing

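Of 728 alternative values of keratin log2 fold changes, 679 kept their sign and did not pass, 43 changed sign and 6 passed, all of Krt7. DESeq2's Wald test and the edgeR fit that omits both libraries with retina transcripts each called 1 keratin for age in OPA1+/+ and 1 for age averaged over both genotypes; leaving out 1 library gave 0 to 1 in both. Without those 2 libraries, the genotype value was 0.072 for Krt4 at 3 months, 0.033 for Krt15, 0.29 for Krt19 and 0.063 for Krt7 at 6 months, and 0.0068 for Krt12 and 0.10 for Krt14 over both ages. With 1 library left out, genotype values ran from -0.087 to 0.0062 for Krt12 and -0.99 to 0.072 for Krt4 at 3 months. At 6 months they ran from -0.0017 to 0.049 for Krt12, -0.80 to 0.034 for Krt15, -0.61 to 0.29 for Krt19 and -0.38 to 0.064 for Krt7. Over both ages they ran from -0.030 to 0.018 for Krt12, -0.16 to 0.13 for Krt14 and -0.21 to 0.17 for Krt8, and age values from -0.26 to 0.19 for Krt8 and -0.061 to 0.10 for Krt18. The number of correlated pairs was 18 with group means kept, 1 without the 2 farthest libraries, 1 without the 2 libraries with retina transcripts and 5 to 16 with 1 library left out. The cause of these shifts was not tested.

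Same-numbered replicates of different groups had deviations with r from -0.14 to 0.23, over 0.1 in 2 of 21 pairs. Differently numbered replicates were not compared and the labels do not name a pairing, so this does not decide whether the numbers pair libraries. With the replicate block no keratin passed; Krt8 had -0.037 for genotype over both ages and 0.0041 for age, and Krt18 had -0.00071 for age. The block ended the Dst call (adjusted p = 0.0995), as did library totals without TMM (0.0523). Itgb4 did not pass with no filter (0.12) or without the 2 libraries with retina transcripts (0.172). Counts of all genes called ran over the alternatives from 0 to 45 for genotype at 3 months (1 as reported), 2 to 197 at 6 months (51), 16 to 314 over both ages (125), 1 to 83 for age in OPA1+/- (13), 0 to 169 in OPA1+/+ (8), 18 to 250 for age over both genotypes (65) and 0 to 21 for the interaction (0). Depth limits Krt8 and Krt18, at 15 to 51 counts.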
